A study of Mus musculus with 2343 samples.

Results

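The 37 genes described here encode the machinery of the cell division cycle, from entry into DNA replication to the separation of chromosomes. They were chosen by name, and all 37 were found among the 45317 gene names of the deposited count table. They fall into 4 role groups: 11 regulators of the G1/S transition and of origin licensing (E2f1, Ccne1, Ccne2, Cdc6, Cdt1 and Mcm2 to Mcm7), 4 genes of DNA synthesis (Pcna, Rrm1, Rrm2 and Tyms), 8 regulators of G2 and mitotic entry (Ccna2, Ccnb1, Ccnb2, Cdk1, Plk1, Aurka, Foxm1 and Mybl2) and 14 genes of chromosomes, centromeres and the spindle (Mki67, Top2a, Bub1, Bub1b, Aurkb, Cenpe, Cenpf, Birc5, Cdc20, Tpx2, Kif11, Nusap1, Ube2c and Cdca8). The first 2 groups together are called the 15 G1/S genes below, and the last 2 the 22 G2/M genes.

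The genes were measured in sorted thymic epithelial cells of mice, the stromal cells that support and select developing T cells. The labels name cortical cells (cTEC) and medullary cells whose surface carries much MHC class II (mTEChi). Every strain carries floxed alleles of Eed, which encodes a core subunit of Polycomb repressive complex 2. Eed cTEC came from the strain Eedflfl::beta5tCre and WT cTEC from Eedflfl. Eed mTEChi came from Eedflfl::ZsGreen::beta5tCre and were sorted as negative (ZsGneg) or positive (ZsGpos) for the ZsGreen reporter. WT mTEChi came from Eedflfl::ZsGreen and were ZsGreen negative. The strain names of WT cells contain no Cre, and the labels give no age. Cre is driven by beta5t, a proteasome subunit gene used by cortical cells and by epithelial progenitors, so a medullary cell carries the deletion only where it or its ancestor used that driver. The bulk data hold 4 ZsGneg libraries, 4 ZsGpos libraries and 9 WT libraries of about 1000 mTEChi cells. The WT libraries were summed by their number 01 to 03 into 3 units, because their titles carry a second number with a meaning not given in the sources used here. Labels tie no unit to an animal, so the p-values below measure only the spread between these samples, which may be technical.

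The order of the cycle gives the genes their roles. In late G1 the E2F factors switch on cyclin E, the licensing factors that load the MCM helicase on replication origins, and the enzymes that make and copy DNA. From S phase into G2 the B-MYB and FOXM1 factors switch on the cyclins and kinases that start mitosis and the proteins that condense, attach and part the chromosomes, and most of these proteins are destroyed once division is over. In the thymic medulla, dividing cells are known chiefly among immature cells and among cells close to the onset of Aire expression, and most mature medullary cells have left the cycle.

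Depth and sample identity were as follows. The 17 bulk libraries held between 10519116 and 14990893 gene counts, and each of the 3 WT units is a sum of 3 libraries. Eed was at 52.1, 30.2 and 46.98 CPM in WT, 77.1, 49.02, 101.1 and 53.4 CPM in ZsGneg and 53.9, 19.2, 90.1 and 16.7 CPM in ZsGpos, and no comparison called it (adjusted p at least 0.611, edgeR). The labels do not say which part of Eed is deleted, and counts over the whole transcript do not check that deletion. Xist, which is made from the inactive X chromosome of female cells, was at 432.9 and 311.2 CPM in WT 01 and 02, at 264.2 CPM in ZsGneg 04 and at 644 CPM in ZsGpos 04, and at no more than 14.9 CPM in the other units. The 12 thymic epithelial markers (Epcam, Foxn1, Krt8, Krt5, Psmb11, Prss16, Ly75, Ctsl, Aire, Cd80, Fezf2 and H2-Aa) all had counts in each bulk group and in each single-cell group. Summed levels over bulk units lay between 38.6 and 205.1 CPM for 5 B cell markers, 275.3 and 1223 CPM for 7 myeloid and dendritic markers, 96.3 and 387.96 CPM for 6 fibroblast markers, 0.936 and 53.7 CPM for 5 endothelial markers and 4.17 and 155.96 CPM for 5 erythroid markers. The 15 thymocyte markers, which matter here because many thymocytes divide, summed to 166.7 to 187.2 CPM in WT, 166.6 to 356.7 CPM in ZsGneg and 245.8 to 613 CPM in ZsGpos. Of the 13 thymocyte markers tested, 12 were above 0 in ZsGpos against WT (median log2 fold change 1.81) and 10 in ZsGneg against WT (median 1.06), and 0 were called in each comparison. The part of thymocyte RNA in the levels below was not tested. Rag2 was at 0 in every WT and ZsGneg unit.

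Promoter strings differed between the phases. RefSeq promoters on GRCm38.p6, the assembly that mm10 stands for, were matched for 31 of the 37 genes, with 250 bases before and 50 bases after the start of each. An E2F site, searched on both strands as TTTCCCGC or TTTGGCGC, was present for 6 of the 13 G1/S genes with an entry (Cdc6, Cdt1, Mcm3, Mcm5, Mcm6 and Mcm7) and for 0 of the 18 G2/M genes, and 1.56% of all 32851 promoter entries hold one. A cell cycle genes homology region (CHR), the element bound by the B-MYB and DREAM complexes and searched on both strands as TTTGAA or TTCGAA, was present for 2 G1/S genes (Mcm2 and Mcm7) and for 13 G2/M genes (Aurka, Bub1, Bub1b, Ccnb2, Cdc20, Cdca8, Cdk1, Cenpf, Kif11, Mki67, Plk1, Top2a and Ube2c), and 19.2% of all entries hold one. A CCAAT box on either strand was present for 8 G1/S and 15 G2/M genes, against 37.4% of all entries. Only 1 overlap between different motifs was found in these promoters. A match is a string of letters and not a measured binding site. The last 150 bases before the start are shown for 2 genes of each phase, 5′ to 3′ on the strand of the gene (for Cdc6 and Top2a the start of the entry lies inside the listed span of the gene), because they hold the strings on which the phases differ. In Mcm6 (minus strand, chr1:128359706-128359855), a subunit of the replicative helicase, and in Cdc6 (plus strand, chr11:98908001-98908150), which loads that helicase, the capitals mark E2F sites:
Mcm6: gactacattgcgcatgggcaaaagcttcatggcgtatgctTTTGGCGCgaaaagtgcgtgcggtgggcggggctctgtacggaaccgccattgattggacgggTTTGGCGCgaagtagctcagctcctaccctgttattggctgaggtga
Cdc6: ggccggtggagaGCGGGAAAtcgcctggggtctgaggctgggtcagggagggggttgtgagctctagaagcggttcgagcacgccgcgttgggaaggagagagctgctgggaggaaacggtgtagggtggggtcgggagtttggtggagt
In Cdk1 (minus strand, chr10:69352913-69353062), the kinase that starts mitosis, and in Top2a (minus strand, chr11:99024190-99024339), the topoisomerase that untangles sister chromosomes, the capitals mark CHR elements:
Cdk1: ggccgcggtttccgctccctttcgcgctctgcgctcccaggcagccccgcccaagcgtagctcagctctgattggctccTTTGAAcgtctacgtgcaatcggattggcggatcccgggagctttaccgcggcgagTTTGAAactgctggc
Top2a: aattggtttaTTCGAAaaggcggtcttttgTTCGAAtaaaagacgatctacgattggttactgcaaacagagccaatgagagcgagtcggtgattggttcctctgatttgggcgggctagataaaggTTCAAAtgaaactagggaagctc

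In bulk mTEChi, genes of both phases had their highest summed levels in ZsGneg cells. The 15 G1/S genes summed to 307.6 ± 22.5 CPM in WT (SD, n = 3; range 286.03 to 330.9), 665 ± 66.4 CPM in ZsGneg (SD, n = 4; 584 to 741) and 411.7 ± 142.5 CPM in ZsGpos (SD, n = 4; 238.6 to 587). All ZsGneg units lay above all WT units, and ZsGpos units reached from below WT into the range of ZsGneg. The 22 G2/M genes summed to 992 ± 82.2 CPM in WT (899 to 1053), 1503 ± 213.8 CPM in ZsGneg (1366 to 1819) and 1032 ± 314.6 CPM in ZsGpos (624 to 1364). Again every ZsGneg unit lay above every WT unit, and ZsGpos spread over both sides of WT. The 9 WT libraries before summing, in CPM of plain library sizes without TMM scaling, ranged from 233.8 to 365.1 CPM and from 624 to 1322 CPM. On that scale the lowest ZsGneg library was at 588.6 CPM for G1/S. For G2/M the lowest ZsGneg library was at 1322.65 CPM, next to 1321.54 CPM in the highest WT library. Other quantities moved with the groups. Genes detected per unit were 24332 to 25323 in WT, 14901 to 18519 in ZsGneg and 17269 to 21311 in ZsGpos. WT units, each a sum of 3 libraries, held a mean of 38839400 gene counts, against 13108000 in ZsGneg and 11313500 in ZsGpos. Genes detected in WT therefore cannot be compared with the Eed groups at equal depth. In the same order, reads outside genes were 33.9 to 39.9%, 29.7 to 33.3% and 39.1 to 43.4%, and mitochondrial counts 7.23 to 7.74%, 5.54 to 7.83% and 9.15 to 14.9%. Their part in the levels was not tested beyond a fit with reads outside genes as a covariate. In bulk samples fewer dividing cells and less RNA per dividing cell cannot be told apart.

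**Figure D1:**
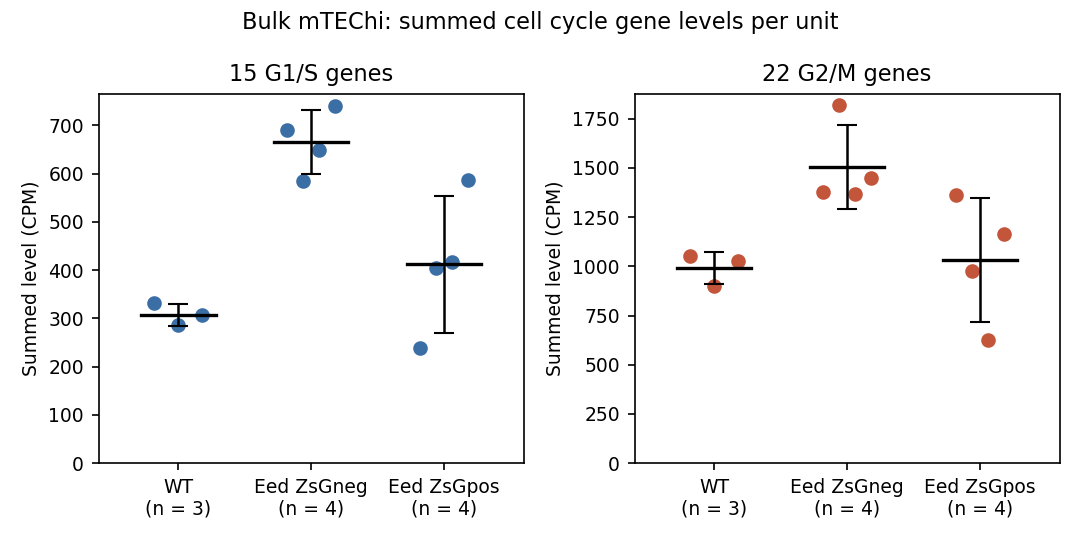
Summed levels in CPM of the 15 G1/S genes (left) and the 22 G2/M genes (right) in each bulk mTEChi unit. Points are units, horizontal bars means and vertical bars SD; the ZsGneg units lie between 584 and 741 CPM for G1/S and between 1366 and 1819 CPM for G2/M, above all WT units.

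Between ZsGneg and WT, 30 of the 37 genes had a fitted log2 fold change above 0, against 43.5% of the 18931 genes tested. The median was 0.70 over the 37 genes, 0.92 over the G1/S genes and 0.61 over the G2/M genes, and -0.15 over all genes tested. With reads outside genes as a covariate the G1/S median was 1.76, and without WT 01 it was 1.34. None of the 37 passed the adjusted threshold of 0.05 in edgeR's quasi-likelihood test with Benjamini-Hochberg adjustment, in a comparison that called 0.0423% of all genes. At an unadjusted p under 0.05, 6 genes were higher and 1 lower, against 2.91% and 7.19% of all genes. The units of 9 genes (Cdc6, Cdt1, Mcm5, Mcm7, Rrm2, Tyms, Top2a, Bub1 and Kif11) all lay above WT and those of 0 genes all below, against 3.92% and 9.91% of all genes. DESeq2 called 4 of the 36 it tested (Cdc6, Mcm7 and Rrm2 higher, Mybl2 lower), against 4.24% of all genes (892 genes).

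Between ZsGpos and ZsGneg, which share the ZsGneg units with the comparison above, 27 of the 37 genes had a log2 fold change below 0, while 54.2% of all genes tested were above 0. The median was -0.58 over the 37 genes, -0.78 over the G1/S genes and -0.58 over the G2/M genes, against 0.14 over all genes. With reads outside genes as a covariate the G1/S median was -1.53 and the G2/M median -0.39. None was called at the adjusted threshold of 0.05 (edgeR), where 2.66% of all genes were, and 1 was higher and 6 were lower at an unadjusted p under 0.05, against 9.69% and 8.62%. The units of Tyms and Cdk1 all lay below ZsGneg, 2 genes in all, against 5.22% of all genes, and those of 0 genes all lay above, against 5.44%. DESeq2 called Ccnb1 and Cdk1 as lower and Mybl2 as higher, 3 of the 36 it tested, against 11.1% of all genes (2284 genes). Between ZsGpos and WT, which shares units with both, 27 genes were above 0 (47.9% of all genes) with a median of 0.26 (all genes -0.05). The G1/S median was 0.53 with 14 of 15 above 0, and the G2/M median 0.07 with 13 of 22 above 0. The G1/S median was 0.16 with the covariate and 0.24 without ZsGpos 04, and the G2/M median was -0.09 without ZsGpos 01. None was called by edgeR (0.38% of all genes) or by DESeq2 (3.28%). At an unadjusted p under 0.05 (edgeR), 2 were higher and 0 lower (2.52% and 6.41% of all genes). Mcm7 alone lay above and Ccnb1 alone below every WT unit (4.78% and 11.1% of all genes).

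**Figure D2:**
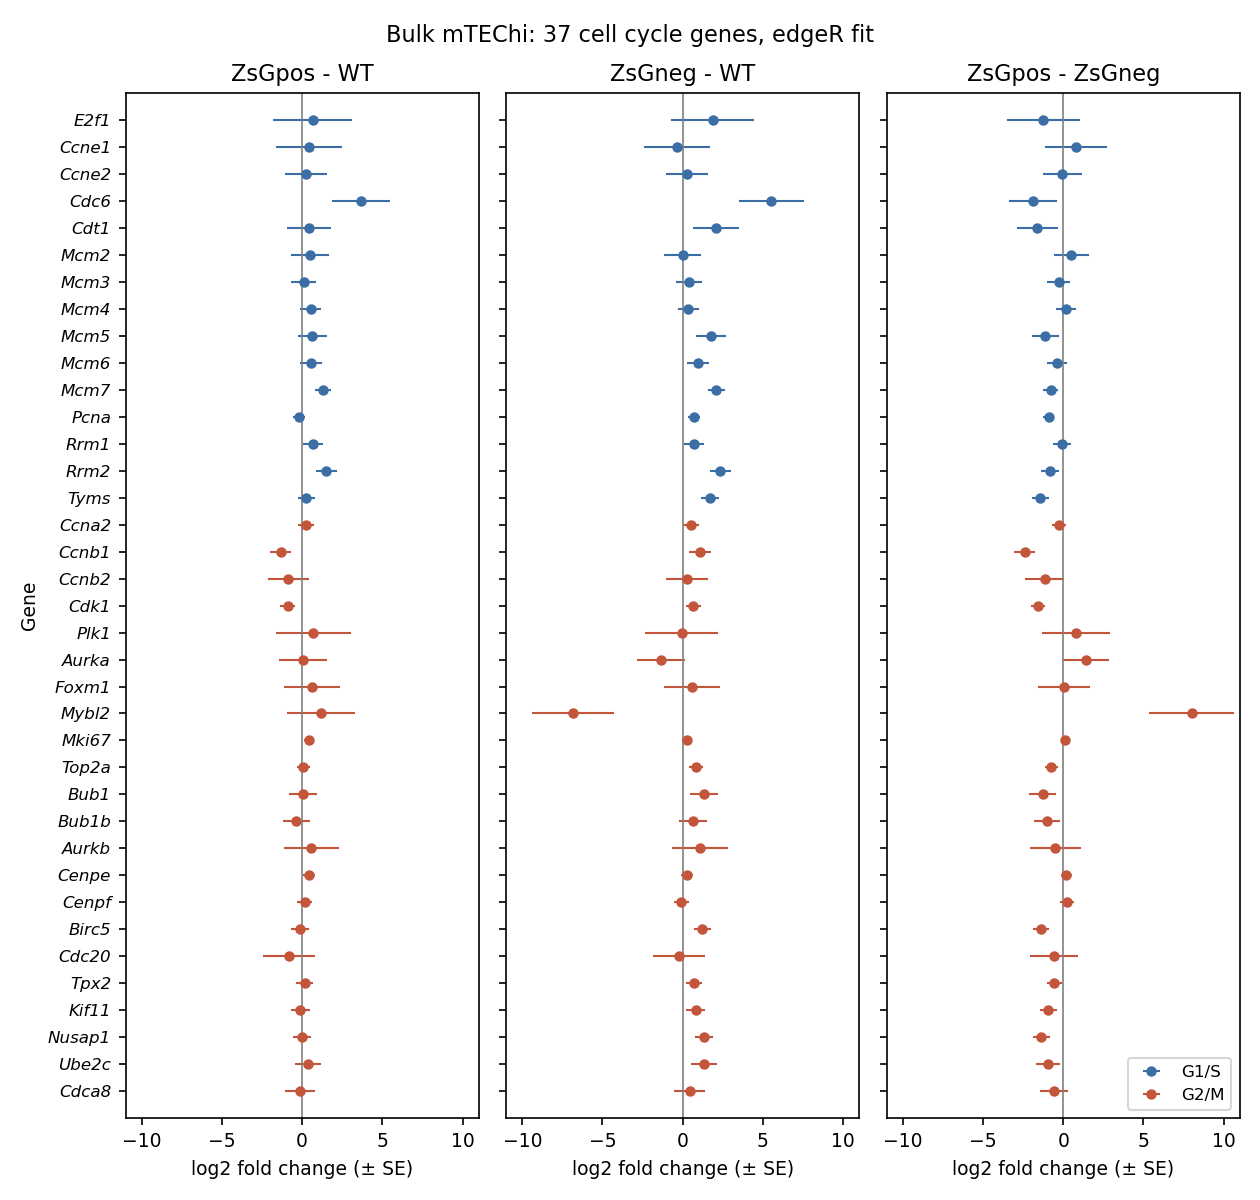
Fitted log2 fold changes with SE of the 37 genes in 3 comparisons of bulk mTEChi groups that share units, in the order of the roles from E2f1 at the top. Blue marks G1/S and red G2/M genes; in the middle panel 30 of 37 genes lie above 0 and in the right panel 27 lie below 0, and wide bars such as that of Mybl2 belong to genes with units at or near 0.

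Of the G1/S regulators, the licensing factors Cdc6 and Cdt1 and the helicase subunits Mcm5 and Mcm7 had ZsGneg units above all WT units, and none of them was called. Cdc6, the ATPase that loads the MCM ring, was at 0, 0.0797 and 1.57 CPM in WT, 21.9, 14.5, 58.9 and 7.32 CPM in ZsGneg and 2.04, 3.33, 0.379 and 22.3 CPM in ZsGpos. All 4 ZsGneg units lay above all WT units, and the ZsGpos units overlapped both groups. The log2 fold change of ZsGneg against WT was 5.53 (SE 2.00, adjusted p = 0.344, edgeR), and that of ZsGpos against WT 3.66 (SE 1.82, adjusted p = 0.614). Cdt1, its partner in licensing, was at 5.35, 0.850 and 2.22 CPM in WT, 20.2, 9.91, 10.6 and 5.89 CPM in ZsGneg and 3.66, 7.88, 0.474 and 3.16 CPM in ZsGpos. ZsGneg units again lay above WT, by 2.05 on the log2 scale (SE 1.43, adjusted p = 0.847), and ZsGpos units lay on both sides of WT.

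The MCM subunits did not all follow this pattern. Mcm7, at chr5:138164583-138172111 (GRCm38.p6, as for all positions here), was at 22.4, 18.3 and 10.05 CPM in WT, 104.3, 30.8, 80.3 and 72.9 CPM in ZsGneg and 39.3, 26.5, 51.3 and 50.4 CPM in ZsGpos. WT units were the lowest of the 3 groups, with no overlap with either Eed group, while the Eed groups overlapped each other. Mcm7 had a log2 fold change of 2.09 for ZsGneg against WT (SE 0.52, adjusted p = 0.221, edgeR) and 1.31 for ZsGpos against WT (SE 0.51, adjusted p = 0.414). Mcm5 was at 11.9, 13.9 and 2.29 CPM in WT, 29.6, 24.3, 52.99 and 20.5 CPM in ZsGneg and 8.68, 3.49, 12.3 and 33.8 CPM in ZsGpos. The ZsGneg units lay above WT by 1.77 on the log2 scale (SE 0.94, adjusted p = 0.621), with ZsGpos units overlapping both groups. Mcm2, by contrast, was at 17.3, 6.14 and 11.1 CPM in WT, 0.159, 4.87, 26.6 and 14.1 CPM in ZsGneg and 12.5, 14.5, 13.5 and 24.7 CPM in ZsGpos. The ZsGneg group held both the lowest and the highest unit, and its log2 fold change was -0.01 against WT and 0.51 for ZsGpos against ZsGneg. Mcm3 was at 16.2, 21.2 and 16.8 CPM in WT, 28.05, 42.1, 3.56 and 20.7 CPM in ZsGneg and 26.1, 10.8, 16.1 and 24.2 CPM in ZsGpos. Its groups overlapped in all comparisons, with ZsGneg 03 the lowest unit of all. Mcm4 and Mcm6 also overlapped in all comparisons, with log2 fold changes against WT of 0.35 and 0.92 in ZsGneg and 0.53 and 0.53 in ZsGpos.

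The regulators upstream of licensing were low and uneven in bulk cells. E2f1, the founding member of the E2F factors, was at 0.0863, 0.0531 and 2.50 CPM in WT, 0.478, 0, 0 and 12.6 CPM in ZsGneg and 0.255, 0.0758, 5.12 and 0.0930 CPM in ZsGpos. Most units of every group were under 1 CPM and 1 unit of each group stood far above the rest. Ccne1, a cyclin E that drives S phase entry with Cdk2, was at 3.97, 9.62 and 0.0467 CPM in WT, 0.478, 4.36, 9.14 and 0.0718 CPM in ZsGneg and 0, 2.27, 16.5 and 5.77 CPM in ZsGpos. Each group held a unit near 0 and another above 9 CPM, so the groups overlapped throughout. The second cyclin E gene, Ccne2, overlapped too, between 1.25 and 16.7 CPM in WT, 1.09 and 18.9 CPM in ZsGneg and 1.02 and 17.1 CPM in ZsGpos. All 11 genes of this role had a log2 fold change above 0 in ZsGpos against WT, 9 of 11 did in ZsGneg against WT and 3 of 11 in ZsGpos against ZsGneg.

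The 4 genes of DNA synthesis were all above 0 in ZsGneg against WT and all below 0 in ZsGpos against ZsGneg, with medians of 1.2 and -0.87. Rrm2, the small subunit of ribonucleotide reductase and the one whose level follows S phase, was at 30.8, 8.69 and 13.6 CPM in WT, 120.003, 96.8, 36.1 and 105.2 CPM in ZsGneg and 18.5, 36.7, 40.6 and 105.1 CPM in ZsGpos. ZsGneg lay above WT in every unit, and ZsGpos overlapped both. The log2 fold change was 2.34 for ZsGneg against WT (SE 0.66, adjusted p = 0.281, edgeR) and 1.51 for ZsGpos against WT (SE 0.64, adjusted p = 0.477). Its partner Rrm1, the large subunit, was at 20.3, 36.1 and 10.6 CPM in WT, 37.8, 53.98, 26.8 and 28.3 CPM in ZsGneg and 13.96, 43.3, 26.6 and 56.5 CPM in ZsGpos. Those groups overlapped, with log2 fold changes of 0.72 and 0.65 against WT in ZsGneg and ZsGpos.

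Tyms, thymidylate synthase, varied least over the ZsGneg units of the 37 genes, relative to its mean, and was at 14.7, 13.02 and 40.9 CPM in WT, 79.4, 65.7, 78.8 and 70.1 CPM in ZsGneg and 35.8, 9.62, 32.6 and 31.4 CPM in ZsGpos. The ZsGneg units stood above every WT unit and above every ZsGpos unit. Tyms differed from WT by 1.68 on the log2 scale in ZsGneg (SE 0.57, adjusted p = 0.323, edgeR), and ZsGpos differed from ZsGneg by -1.43 (SE 0.51, adjusted p = 0.163). Pcna, the clamp that holds DNA polymerases on the template, was at 104.9, 108.5 and 148.7 CPM in WT, 139.5, 135.5, 194.5 and 317.7 CPM in ZsGneg and 51.1, 151.4, 128.9 and 88.99 CPM in ZsGpos. Only ZsGneg 03 and 04 exceeded the highest WT and ZsGpos units, with log2 fold changes of 0.71 from WT to ZsGneg (SE 0.39, adjusted p = 0.652) and -0.91 from ZsGneg to ZsGpos (SE 0.36, adjusted p = 0.196). Pcna, Tyms and Ccnb1 have pseudogene copies in the RefSeq annotation, and reads could have been divided between copies in the authors' counting.

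Among the regulators of mitotic entry, cyclin B1 and its kinase were lowest in ZsGpos cells. Ccnb1, at chr13:100778739-100786486, was at 27.3, 32.3 and 36.6 CPM in WT, 19.04, 86.7, 118.8 and 47.3 CPM in ZsGneg and 8.68, 19.9, 4.17 and 18.4 CPM in ZsGpos. Every ZsGpos unit lay below every WT unit, and ZsGneg 01 lay among the ZsGpos units while the other ZsGneg units lay above WT. From ZsGneg to ZsGpos the log2 fold change was -2.41 (SE 0.64, adjusted p = 0.0655, edgeR), which became a call at adjusted p = 0.0265 without ZsGneg 01, and -1.33 for ZsGpos against WT (SE 0.65, adjusted p = 0.603). Cdk1, at chr10:69335146-69352912, was at 62.6, 73.7 and 108.7 CPM in WT, 116.3, 96.8, 166.9 and 136.8 CPM in ZsGneg and 16.8, 71.5, 20.6 and 65.4 CPM in ZsGpos. All ZsGpos units lay below all ZsGneg units, and WT overlapped both. The log2 fold change of ZsGpos against ZsGneg was -1.57 (SE 0.45, adjusted p = 0.0901).

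The factors that switch on mitotic genes were sparse in bulk cells. Mybl2, which encodes B-MYB and lies at chr2:163054327-163084688, was at 6.38, 0.0797 and 2.83 CPM in WT, 0, 0.0854, 0 and 0 CPM in ZsGneg and 18.2, 8.94, 0.663 and 0 CPM in ZsGpos. The ZsGneg group held 1 count of the gene in all, in unit 02, and both of the other groups also held a unit at or near 0. The ratio of WT to ZsGneg was 155.7 (95% Poisson interval 27.8 to 6167) and that of ZsGpos to ZsGneg 392.8 (70.02 to 15559), intervals that cover counting error only. The adjusted p was 0.367 for ZsGneg against WT and 0.136 for ZsGpos against ZsGneg (edgeR). Foxm1 was at 0.661, 3.75 and 8.55 CPM in WT, 0.0797, 7.34, 6.58 and 11.6 CPM in ZsGneg and 14.5, 0.530, 0.284 and 11.3 CPM in ZsGpos. Each group again held units near 0 and units above 8 CPM. Plk1, a kinase of mitotic entry and spindle assembly, was at 9.40, 1.46 and 0.724 CPM in WT, 0, 13.7, 0 and 1.01 CPM in ZsGneg and 14.1, 9.40, 0 and 1.58 CPM in ZsGpos. Its groups overlapped and 3 of 11 units were at 0. Ccna2, Ccnb2 and Aurka overlapped in all 3 comparisons, with adjusted p values of at least 0.71 (edgeR) and log2 fold changes against WT of 0.51, 0.27 and -1.38 in ZsGneg and 0.24, -0.87 and 0.06 in ZsGpos.

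The chromosome and spindle genes gave 12 of 14 log2 fold changes above 0 in ZsGneg against WT (median 0.75), 8 of 14 in ZsGpos against WT (median 0.06) and 3 of 14 in ZsGpos against ZsGneg (median -0.66). Mki67, which coats mitotic chromosomes and is the usual marker of cycling cells, was at 213.1, 155.9 and 124.3 CPM in WT, 135.5, 276.1, 185.1 and 194.4 CPM in ZsGneg and 277.4, 149.3, 176.04 and 267.9 CPM in ZsGpos. Its groups overlapped, with log2 fold changes of 0.27 from WT to ZsGneg (SE 0.30) and 0.14 from ZsGneg to ZsGpos (SE 0.28). Top2a was at 182.03, 135.5 and 265.3 CPM in WT, 340.5, 421.4, 311.9 and 297.1 CPM in ZsGneg and 312.4, 194.5, 58.1 and 257.9 CPM in ZsGpos. The ZsGneg units lay above WT, by 0.82 on the log2 scale (SE 0.42, adjusted p = 0.596, edgeR), and ZsGpos units ranged from the lowest of the 11 to the third highest.

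Birc5 (survivin, of the chromosomal passenger complex) was at 34.7, 32.9 and 14.8 CPM in WT, 83.1, 60.2, 26.5 and 86.7 CPM in ZsGneg and 32.7, 31.8, 15.9 and 19.5 CPM in ZsGpos. ZsGneg 01, 02 and 04 exceeded every other unit, while ZsGneg 03 lay within WT, with log2 fold changes of 1.22 from WT to ZsGneg (SE 0.55, adjusted p = 0.468, edgeR) and -1.36 from ZsGneg to ZsGpos (SE 0.50, adjusted p = 0.174). Nusap1, which bundles spindle microtubules, was at 39.6, 33.4 and 22.9 CPM in WT, 113.6, 52.9, 36.3 and 119.5 CPM in ZsGneg and 11.8, 57.2, 24.6 and 30.6 CPM in ZsGpos. ZsGneg 01 and 04 were the highest units, and the log2 fold changes were 1.33 (SE 0.58, adjusted p = 0.446) and -1.37 (SE 0.53, adjusted p = 0.186) in the same comparisons. Ube2c, the ubiquitin-conjugating enzyme of the anaphase-promoting complex, was at 6.93, 10.1 and 23.9 CPM in WT, 19.4, 81.05, 15.6 and 22.2 CPM in ZsGneg and 9.53, 20.9, 12.1 and 28.1 CPM in ZsGpos. ZsGneg 02 was far above all other units, which overlapped, and the log2 fold change of ZsGneg against WT was 1.34 (SE 0.82, adjusted p = 0.748, edgeR).

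Aurkb, the kinase of the passenger complex, was at 0.173, 11.8 and 13.5 CPM in WT, 46.3, 0, 0.465 and 24.8 CPM in ZsGneg and 8.85, 19.8, 19.1 and 2.88 CPM in ZsGpos. ZsGneg held both the lowest unit and the highest, and no comparison separated the groups. Cenpf, a kinetochore protein, was at 86.2, 61.6 and 109.5 CPM in WT, 61.04, 169.1, 42.2 and 51.5 CPM in ZsGneg and 110.8, 68.2, 113.4 and 87.8 CPM in ZsGpos. ZsGneg 02 was the highest unit of all and the other ZsGneg units were the lowest of the 11. Cdc20, the activator of the anaphase-promoting complex, was at 19.2, 22.2 and 25.8 CPM in WT, 27.7, 22.1, 0.387 and 25.6 CPM in ZsGneg and 40.6, 0.0758, 0 and 10.3 CPM in ZsGpos. WT units were alike, while each Eed group held units close to 0. Of the other genes of this role, Bub1 (0.04, 1.33 and -1.29 for ZsGpos against WT, ZsGneg against WT and ZsGpos against ZsGneg, log2) and Kif11 (-0.12, 0.80 and -0.92) had ZsGneg units above all WT units. Bub1b, Cenpe, Tpx2 and Cdca8 overlapped in all 3 comparisons, with log2 fold changes of 0.65, 0.27, 0.70 and 0.45 for ZsGneg against WT.

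Many of the 37 genes varied widely between the units of a group. The median coefficient of variation over units was 65.7% for G1/S and 39.01% for G2/M genes in WT, 47.3% and 55.1% in ZsGneg and 66.7% and 65.6% in ZsGpos. Between 3 and 4 G1/S genes and between 4 and 7 G2/M genes in a group had a unit under 1 CPM. Counts were simulated from the mean levels of all 11 units, with changes of known size put into ZsGpos for genes drawn from the 18931. Against WT, 2.67% of 2-fold changes, 14.3% of 4-fold changes and 34.5% of 8-fold changes were recovered. For genes drawn from the whole table, changes of up to 8-fold were thus mostly not recovered. These rates were not obtained for the 37 genes, whose SE in ZsGpos against WT ran from 0.31 (Mki67) to 2.47 (E2f1). The spans of 12 of the 37 genes overlap another annotated gene, among them Mcm7 with Ap4m1 and 3 microRNA genes and Ccne2 with Ints8, and reads of such pairs cannot be told apart, since the use of strand was not given in the sources used here.

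Other genes of the same machinery were counted in 3 lists: 31 of replication and S phase, 37 of G2 and mitosis and 6 brakes of the cycle. All were tested. In ZsGneg against WT, 23 of 31 and 32 of 37 were above 0 (43.5% of all genes; medians 0.59 and 0.47) and 0 were called in each list (0.0423% of all genes, edgeR). In ZsGpos against ZsGneg, 10 of 31 and 5 of 37 were above 0 (54.2% of all genes; medians -0.85 and -0.67). Here 0 replication genes were called, and 2 genes of G2 and mitosis, Cks1b and Ncapg, fell, with 2.66% of all genes called. In ZsGpos against WT, 16 of 31 and 12 of 37 were above 0 (47.9% of all genes; medians 0.02 and -0.25) with 0 called (0.38%). Cks1b, which binds cyclin-dependent kinases, was at 47.1, 57.4 and 41.7 CPM in WT, 131.2, 136.9, 274.5 and 110.1 CPM in ZsGneg and 27.5, 25.2, 5.02 and 53.1 CPM in ZsGpos. All ZsGneg units lay above WT and all ZsGpos units but 04 below WT, and the log2 fold change of ZsGpos against ZsGneg was -2.56 (SE 0.55, adjusted p = 0.0223, edgeR), a call lost without ZsGneg 03, ZsGpos 01 or ZsGpos 02 (adjusted p up to 0.0721). Ncapg, a condensin subunit, was at 34.9, 33.02 and 39.1 CPM in WT, 38.2, 55.5, 151.997 and 78.5 CPM in ZsGneg and 20.7, 12.4, 10.6 and 16.2 CPM in ZsGpos. ZsGpos units all lay below WT, and the log2 fold change was -2.44 (SE 0.48, adjusted p = 0.0151), lost without ZsGneg 03 (adjusted p = 0.0544). Among the brakes, Cdkn1a (p21), which inhibits cyclin-dependent kinases, was at 89.5, 114.2 and 97.5 CPM in WT, 110.8, 53.6, 33.1 and 52.8 CPM in ZsGneg and 229.2, 195.4 and 167.2 CPM in ZsGpos 02, 03 and 04. ZsGpos 01 lay below those 3 and above every WT and ZsGneg unit. It rose in ZsGpos against ZsGneg by 1.51 on the log2 scale (SE 0.35, adjusted p = 0.0359), a call lost when any of 9 of the 11 units was left out (adjusted p up to 0.102). With reads outside genes as a covariate all 3 calls were lost (adjusted p = 1 for each), and 0% of all genes were called in that comparison. Those of Cks1b and Cdkn1a were also lost in a fit of only ZsGneg and ZsGpos (adjusted p = 0.0531 and 0.0679), and that of Ncapg with 9 separate WT libraries (0.0736).

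Small pools of 100 cells, of which 1 held 70, were shallow, with 68 to 180374 gene counts in the 15 pools. On plate SCGC1373, which holds 3 pools of each mTEChi group, 731 genes were tested and Pcna was the only one of the 37 among them. Pcna was at 106.9, 96.8 and 139.3 CPM in WT, 49.8, 139.1 and 139.2 CPM in ZsGneg and 205.1, 282.96 and 261.1 CPM in ZsGpos. Here the ZsGpos pools were the highest, while in bulk units the highest values were in ZsGneg. Pcna in ZsGpos pools had a log2 fold change of 1.24 against WT (SE 0.63, adjusted p = 0.309, edgeR; 2.74% of genes called) and 1.49 against ZsGneg (SE 0.59, adjusted p = 0.18; 3.69% called), and that of ZsGneg against WT -0.25 (adjusted p = 0.934; 0.547% called). The G1/S genes summed to 249.5, 193.6 and 537.2 CPM in WT, 149.4, 208.7 and 371.2 CPM in ZsGneg and 343.7, 424.4 and 507.7 CPM in ZsGpos, so ZsGneg was not the highest group as it was in bulk. The G2/M genes summed to 499.1, 871 and 2706 CPM in WT, 813, 696 and 1392 CPM in ZsGneg and 426.9, 270 and 507.7 CPM in ZsGpos. The thymocyte sum was 35.6, 0 and 159.2 CPM, 132.8, 320 and 603 CPM, and 72.1, 180.1 and 1059 CPM in the same pools, and its part in the levels was not tested.

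Single cells were kept with at least 50000 gene counts, 1000 genes and at most 40% mitochondrial counts. Each cell came from its own well, and 0 pairs of wells had identical counts. On plates SCGC1373, SCGC1379, SCGC1380 and SCGC1381 these limits kept 48, 51, 110 and 77 WT mTEChi cells, 85, 89, 70 and 85 ZsGneg cells and 53, 73, 89 and 2 ZsGpos cells. cTEC wells carry no plate label. Of the wells labelled as having no template, 3 of plate SCGC1380 held more than 50000 gene counts, the limit used for cells, and this is the plate on which ZsGpos cells had the lowest G2/M levels described below. Median gene counts were 538740 and 516401 in WT and Eed cTEC and 289438, 304963 and 309825 in WT, ZsGneg and ZsGpos mTEChi. No animal is named, so each group is 1 sample, and what follows is a description of these cells with no test. Eed itself was at 34.2 CPM (95% Poisson interval 33.2 to 35.2, which like all such intervals here covers counting error only, and PCR copies are not independent molecules) in WT cTEC, 21.01 CPM (20.3 to 21.7) in Eed cTEC, 39.4 CPM (38.1 to 40.7) in WT mTEChi, 46.02 CPM (44.7 to 47.3) in ZsGneg and 25.3 CPM (24.1 to 26.5) in ZsGpos.

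Summed levels of mitotic genes differed more between the mTEChi and cTEC groups than those of replication genes did. The cTEC and mTEChi groups also differed in strain, in plate labels and in depth, and the part of these in the levels was not tested. No values of all genes stand beside this comparison. The 22 G2/M genes summed to 1524, 1471 and 1221 CPM in WT, ZsGneg and ZsGpos mTEChi and to 215.1 and 176.3 CPM in WT and Eed cTEC. The G1/S genes summed to 842, 905 and 697 CPM in mTEChi and 427.8 and 410 CPM in cTEC. Cdk1 was at 137.5, 134.4 and 124.2 CPM in the mTEChi groups and at 13.1 and 8.48 CPM in WT and Eed cTEC. After each cell was thinned to 50000 gene counts, it had a count in 33.2, 33.4 and 23.5% of mTEChi cells and in 8.82 and 3.33% of cTEC. Top2a was at 153.8, 160.8 and 126.01 CPM and at 19.6 and 15.1 CPM. For both genes every mTEChi group exceeded both cTEC groups, and over all plates ZsGpos was the lowest of the mTEChi groups. On plate SCGC1379 it was the highest for both, with Cdk1 at 182.8 CPM against 174.6 in WT and 168.8 in ZsGneg, and Top2a at 198.2 against 160.1 and 141.1 CPM.

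Rrm1 and Mcm4 were the G1/S genes with a higher level in WT cTEC than in every mTEChi group. Rrm1 was at 84.2 and 78.7 CPM in WT and Eed cTEC and at 63.7, 77.6 and 46.04 CPM in WT, ZsGneg and ZsGpos mTEChi. Mcm4 was at 50.7 and 41.9 CPM in cTEC and at 40.7, 47.4 and 30.8 CPM in mTEChi. Pcna, with a count in 54.04 and 64.5% of thinned cTEC and in 66.4, 62.6 and 66.4% of mTEChi, was the gene found in the largest share of cells of every group among the 37. E2f1 was found in the smallest share, which it shared with Bub1 in Eed cTEC. Mcm7 was at 40.2 and 63.4 CPM in cTEC and 69.6, 73.2 and 58.6 CPM in mTEChi. Over all plates ZsGpos was thus slightly lower than WT for Mcm7 (log2 -0.24), at 32.8 against 148.5 CPM on plate SCGC1373 but 49.3 against 45.5 CPM on SCGC1380, while every bulk ZsGpos unit lay above WT.

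The counts of a mitotic gene were unevenly spread over cells. In mTEChi, cells with at least 5 of the 22 G2/M genes detected gave a median of 92.4, 91.8 and 94.5% of the counts of a G2/M gene in WT, ZsGneg and ZsGpos. These cells were picked by detection of the same genes, so a high share was largely fixed in advance. In cTEC 1 cell alone gave a median of 43.8% (WT) and 36.6% (Eed) of the counts of a G2/M gene, against 9.08, 8.90 and 13.5% in mTEChi. The cTEC levels of these genes thus rest on very few cells. Cells with at least 5 G2/M genes were 63 WT (22.03%, exact 95% binomial interval 17.4 to 27.3), 79 ZsGneg (24.01%, 19.5 to 29) and 40 ZsGpos mTEChi (18.4%, 13.5 to 24.2), and 10 WT (3.68%, 1.78 to 6.66) and 8 Eed cTEC (2.42%, 1.05 to 4.72). The mTEChi intervals overlap each other and none reaches those of cTEC. These intervals cover counting error only. Without thinning the shares were 29.7, 29.5 and 23.5% in mTEChi and 4.04 and 4.24% in cTEC. Cells without any G2/M gene made up 29.02, 27.7 and 38.2% of mTEChi and 52.9 and 58.8% of cTEC. The group is a range of a per-cell number and no cell type, and 51, 57 and 29 mTEChi cells and 22 and 17 cTEC held between 3 and 7 of these genes.

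**Figure D3:**
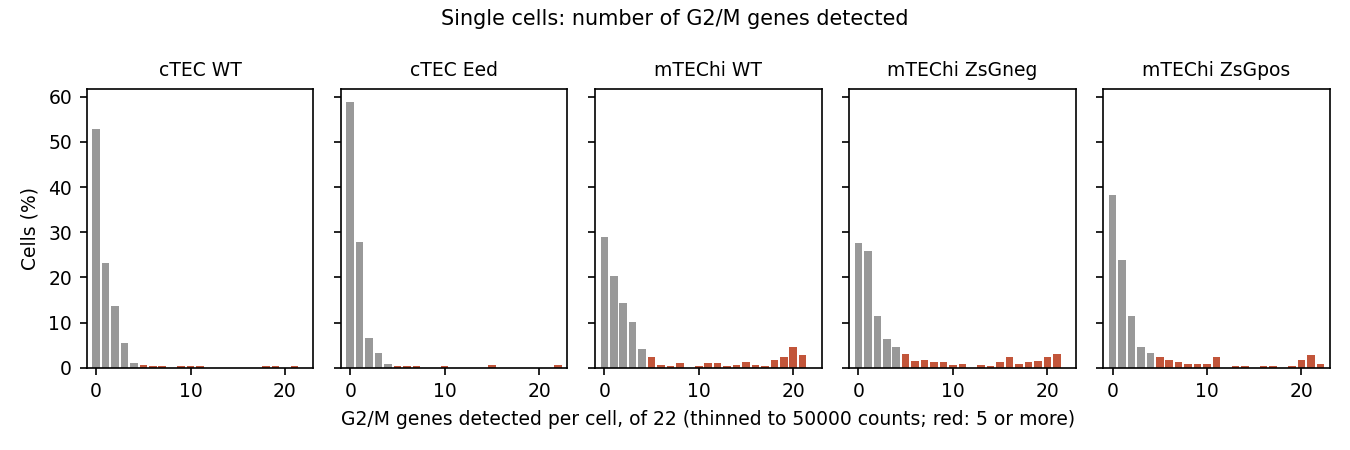
Share of cells (%) by the number of the 22 G2/M genes detected after thinning to 50000 counts, for the 5 single-cell groups. Bars in red hold the cells with 5 or more, which are 22.03, 24.01 and 18.4% of WT, ZsGneg and ZsGpos mTEChi and 3.68 and 2.42% of WT and Eed cTEC, and each group has a cell with 21 or 22.

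Cells with many genes of both phases were a larger share of mTEChi than of cTEC. At least 5 of the 15 G1/S genes were detected in 22.03, 24.01 and 17.97% of WT, ZsGneg and ZsGpos mTEChi and in 13.2 and 12.7% of WT and Eed cTEC. At least 5 of both phases were detected in 16.1, 14.9 and 11.98% of mTEChi and in 2.57 and 0.909% of cTEC. Among cells with at least 5 G2/M genes, those with at least 5 G1/S genes were 73, 62 and 65% in WT, ZsGneg and ZsGpos mTEChi, 70% of the 10 WT cTEC and 37.5% of the 8 Eed cTEC. Among cells with no G2/M gene they were 2.41, 4.40 and 2.41% in mTEChi and 10.4 and 11.9% in cTEC. Across cells the Spearman correlation between the numbers of genes of the 2 phases was 0.56, 0.50 and 0.42 in the mTEChi groups and 0.16 and 0.06 in the cTEC groups. It is a description over cells that share a library depth range and plates.

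Between the mTEChi groups the plates did not give 1 answer. The share of cells with at least 5 G2/M genes on plates SCGC1373, SCGC1379, SCGC1380 and SCGC1381 was 29.2, 27.5, 22.7 and 12.99% in WT and 30.6, 15.7, 25.7 and 24.7% in ZsGneg. In ZsGpos it was 22.6% on plate SCGC1373, 28.8% on SCGC1379 and 7.87% on SCGC1380 (7 of 89 cells, 3.22 to 15.5), and 0 of the 2 cells of plate SCGC1381. ZsGpos was thus the lowest group on plates SCGC1373 and SCGC1380 and the highest on SCGC1379. Without plate SCGC1379 its share was 13.2% and without plate SCGC1380 it was 25.8%. The G2/M sum in ZsGpos was 828, 1871 and 406.1 CPM on plates SCGC1373, SCGC1379 and SCGC1380, against 1123, 1869 and 1804 CPM in WT and 1449, 1262 and 2119 CPM in ZsGneg. Median gene counts of ZsGpos cells were 219078, 527534 and 263363 on these plates, so plate SCGC1379, where the share was highest, was also the deepest, and the part of depth beyond the thinning was not tested.

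**Figure D4:**
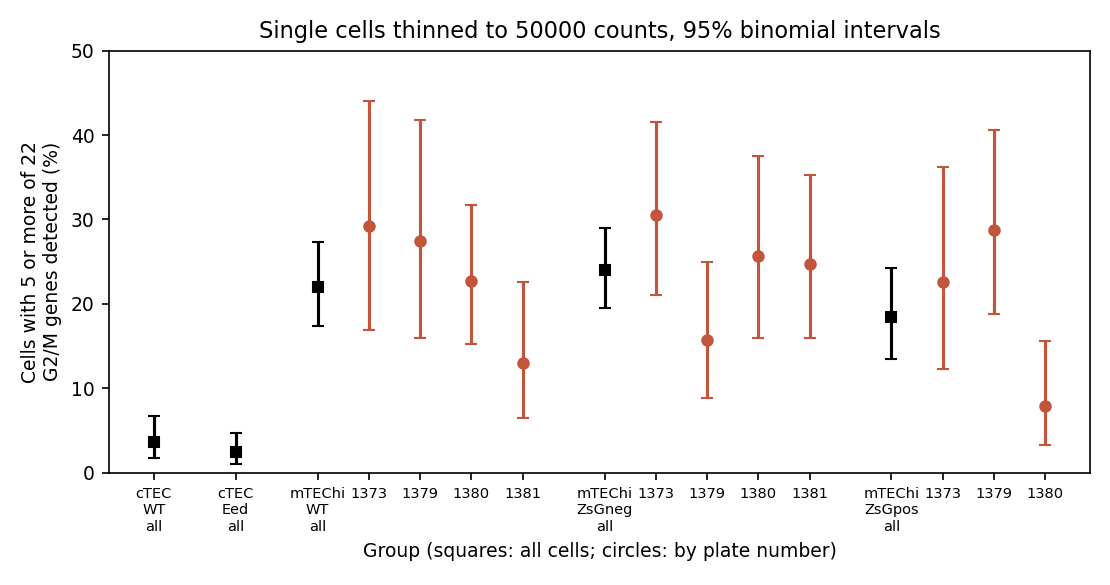
Share of single cells (%) with 5 or more of 22 G2/M genes detected after thinning, by group (squares) and by plate number for mTEChi (circles), with exact 95% binomial intervals. Plates with fewer than 10 cells are left out; the ZsGpos share runs from 7.87% on plate SCGC1380 to 28.8% on plate SCGC1379.

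Gene by gene the same plates differed. On plate SCGC1380, 36 of 36 genes had a lower summed level in ZsGpos than in ZsGneg cells (median log2 ratio -1.99), and 83.3% lay past a 2-fold lower ratio against 8.24% of all genes. On plate SCGC1373, 33 of 36 were lower (median -0.87), and on plate SCGC1379 only 9 of 36 (median 0.43). Against WT, ZsGpos was lower for 28, 20 and 32 of 36 genes on plates SCGC1373, SCGC1379 and SCGC1380 (medians -1.03, -0.12 and -1.40), and the phases traded places. On plate SCGC1373 all 14 G1/S genes were lower, with a median of -1.98 against -0.45 for G2/M. On plate SCGC1380 all 22 G2/M genes were lower, with a median of -2.19 against -0.49 for G1/S. Mki67 was at 132.6 CPM in WT, 159.3 CPM in ZsGneg and 11.2 CPM in ZsGpos cells of plate SCGC1380, but at 127.4, 91.1 and 134.3 CPM on plate SCGC1379. Kif11, the motor that parts the spindle poles, was at 57.3, 61.6 and 3.53 CPM on plate SCGC1380 and at 23.1, 25.3 and 27.7 CPM on plate SCGC1379. For both genes the ZsGpos cells were lowest by far on the first plate and highest on the second. ZsGneg against WT was also uneven, with 18, 29, 5 and 11 of 36 genes lower on plates SCGC1373, SCGC1379, SCGC1380 and SCGC1381.

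**Figure D5:**
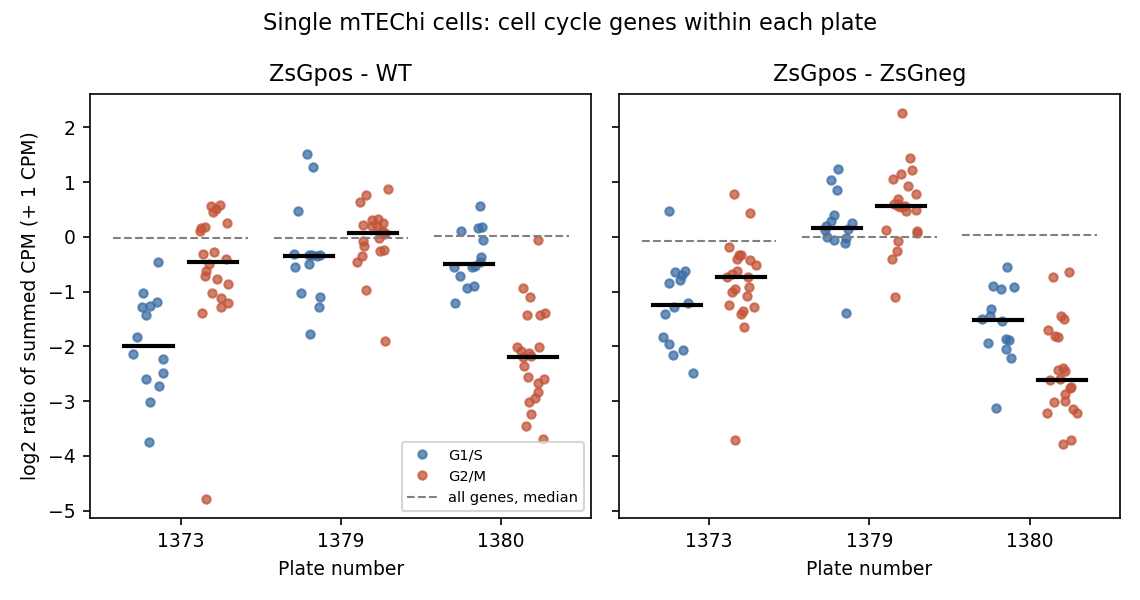
Log2 ratio of summed CPM (1 CPM added) of ZsGpos against WT (left) and against ZsGneg (right) single mTEChi cells within plates SCGC1373, SCGC1379 and SCGC1380. Points are genes, blue G1/S and red G2/M, black bars their medians and dashed lines the median of all genes; on plate SCGC1380 all 36 genes lie below 0 against ZsGneg, on plate SCGC1379 only 9 do.

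Ccne2 and Mybl2 were the 2 genes more than 2-fold lower over all cells, and lower on each of the 4 plates, in ZsGpos than in both other groups. A gene was counted as past the fold where the log2 ratio of the summed levels was at least 1 in size and of 1 sign on every plate, among genes with a mean of at least 5 CPM. By this rule 2 of 36 genes were lower in ZsGpos than in WT and 0 higher, against 3.08% and 1.19% of all genes, and 2 of 36 were lower than in ZsGneg and 0 higher, against 2.15% and 1.39%. In ZsGneg against WT 0 of 36 passed, against 3.11% of all genes in either direction. Smaller ratios were also of 1 sign: 8 more genes were lower than WT on all 4 plates (Cdt1, Mcm3, Mcm5, Mcm6, Rrm1, Ccna2, Foxm1 and Birc5, log2 -0.94 to -0.06 over all plates), and 7 more were lower than ZsGneg (Cdt1, Rrm1, Rrm2, Tyms, Bub1, Cenpe and Birc5, -0.91 to -0.13). The share of all genes lower on all 4 plates was not counted, so these numbers have no background. On plate SCGC1381, with 2 ZsGpos cells, 69.9% of all genes were lower than WT and 69.4% lower than ZsGneg. Over all plates the median log2 ratio of the genes was -0.34 for ZsGpos against WT, 0.04 for ZsGneg against WT and -0.36 for ZsGpos against ZsGneg, with all genes at -0.02 in each. Without plate SCGC1381, which adds 2 ZsGpos cells, 5 genes passed as lower against WT (Ccne2, Mcm5, Mcm6, Mybl2 and Birc5; 3.59% of all genes) and 3 against ZsGneg (Ccne2, Mybl2 and Bub1; 2.42%). Without plate SCGC1379, 15 passed as lower against WT (5.25% of all genes) and 25 against ZsGneg (4.45%).

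Ccne2, at chr4:11190433-11204779, was at 26.9, 13.9, 5.26 and 7.23 CPM on plates SCGC1373, SCGC1379, SCGC1380 and SCGC1381 in WT cells, at 18.3, 10.3, 27.8 and 25.3 CPM in ZsGneg cells and at 4.005, 3.34, 2.29 and 0 CPM in ZsGpos cells. ZsGpos was the lowest group on each plate, but plate SCGC1381 holds only 2 ZsGpos cells, where 0 CPM of a sparse gene says little. Over all plates the levels were 11.4 CPM (Poisson interval 10.7 to 12.1) in WT, 18.8 CPM (17.97 to 19.6) in ZsGneg and 3.11 CPM (2.72 to 3.54) in ZsGpos, where 1 cell gave 16.4% of the counts, a log2 ratio of -1.59 against WT and -2.27 against ZsGneg. Bulk ZsGpos units showed no such difference, with Ccne2 at log2 0.23 against WT and -0.05 against ZsGneg. Mybl2 was at 32.9, 14.1, 24.8 and 10.1 CPM in WT, 15.1, 7.70, 21.8 and 11.2 CPM in ZsGneg and 0.236, 3.04, 5.43 and 0 CPM in ZsGpos on the same plates. Again ZsGpos was the lowest on each plate, with the same limit on plate SCGC1381. Over all plates it was at 19.9 CPM (18.96 to 20.8) in WT, 12.8 CPM (12.2 to 13.5) in ZsGneg and 3.28 CPM (2.87 to 3.72) in ZsGpos, where 1 cell gave 33.2% of the counts, a log2 ratio of -2.29 against WT and -1.69 against ZsGneg. In bulk units ZsGneg was the group with almost no Mybl2 count, so bulk and single cells disagreed on which Eed group was lower. Mybl2 had a count in 12.9, 9.12 and 4.15% and Ccne2 in 10.5, 11.2 and 5.07% of thinned WT, ZsGneg and ZsGpos cells.

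In single cells the other genes of the machinery were read by the same rule. In ZsGpos against WT, 2 of 28 tested replication genes (Clspn and E2f7), 2 of 37 genes of G2 and mitosis (Nek2 and Ncapg) and 1 of 6 brakes (Rbl2) were past the fold, all lower, against 3.08% of all genes. In ZsGpos against ZsGneg, 4 of 37 genes of G2 and mitosis (Cdc25c, Anln, Ckap2l and Dlgap5) were lower, against 2.15% of all genes, and the brake Cdkn1c was higher, against 1.39%. In ZsGneg against WT, Mcm10 was higher and Cdkn1c lower, where 3.11% of all genes passed in either direction. Between Eed and WT cTEC, which carry no plate label, the size of the ratio alone counted, and 19.3% of all genes passed. Of 21 tested replication genes 1 was lower (E2f8). Of 23 genes of G2 and mitosis 2 were higher and 3 lower (Cdc25b, Ect2, Cenpa, Smc4 and Racgap1 together). Of 6 brakes 2 were higher (Cdkn1a and Cdkn1c). Ncapg was lower in ZsGpos in bulk units against ZsGneg and in single cells against WT, which are different comparisons. It was not called in bulk ZsGpos against WT and not past the fold in single ZsGpos against ZsGneg cells.

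Most mTEChi cells with at least 5 G2/M genes had counts of epithelial and medullary markers. Epcam was detected in 98.4, 97.5 and 97.5% and Aire in 82.5, 87.3 and 85% of those cells in WT, ZsGneg and ZsGpos. In mTEChi with no G2/M gene the shares were 97.6, 92.3 and 92.8% for Epcam and 78.3, 69.2 and 62.7% for Aire. Aire was detected in 1.39 and 0.515% of WT and Eed cTEC with no G2/M gene. The level of Aire in WT mTEChi was 604 CPM in cells with at least 5 G2/M genes, 1189 CPM in cells with 1 to 4 and 833 CPM in cells with none. In ZsGneg it was 816, 1414 and 1070.3 CPM. In ZsGpos it was 749, 1093 and 668 CPM, so the cells with at least 5 were lowest in WT and ZsGneg but not in ZsGpos. H2-Aa was at 9442 against 13821 CPM in cells with 1 to 4 in WT, 9099.7 against 14055 CPM in ZsGneg and 10504 against 11602 CPM in ZsGpos. In the cells with none H2-Aa was at 12576.9, 13728.5 and 11553.1 CPM. Krt5, a keratin of basal and less mature medullary cells, was detected in 57.1, 67.1 and 85% of the cells with at least 5 and in 34.9, 43.96 and 66.3% of the cells with none. Its level differed less, at 393.1 against 292.4 CPM in WT, 633 against 592 CPM in ZsGneg and 1020.3 against 1003 CPM in ZsGpos, and WT cells with 1 to 4 were at 627 CPM. Cd80, also an epithelial marker listed above, was detected in 38.1, 43.04 and 27.5% of the cells with at least 5. Among the cells with none the shares for Cd80 were 34.9, 29.7 and 14.5%. Its level was 20.3 against 48.02 CPM in WT, 35.4 against 34.1 CPM in ZsGneg and 18.5 against 14.4 CPM in ZsGpos. The cells with at least 5 were deeper than those with none, with median gene counts of 306410, 355871 and 370563 against 242034, 245888 and 259301, and these marker shares are of unthinned counts. At least 3 of the 15 thymocyte markers were detected in 8, 14 and 6 of the cells with at least 5 (12.7, 17.7 and 15%). Among the cells with none the shares were 4.82, 12.1 and 10.8%.

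In cTEC the few cells with many mitotic genes often had counts of thymocyte markers. Of the 10 WT cells 4 and of the 8 Eed cells 5 had at least 3 thymocyte markers, and the thymocyte sum was 700.3 and 1200.1 CPM in them against 44.3 to 80.1 CPM and 41.2 to 45.9 CPM in cells with 1 to 4 and with no G2/M gene. Psmb11, the cortical proteasome subunit, was detected in 3 of the 10 and 2 of the 8. Whether these wells held a second cell was not tested. Without cells that had at least 3 thymocyte markers the share was 2.29% in WT and 0.946% in Eed cTEC. Between Eed and WT cTEC 0 of 27 tested genes passed the fold (19.3% of all genes did), with a median log2 ratio of -0.10 against 0.02 for all genes. The other 10 genes were under 5 CPM on average in cTEC. Of the 27, Ccna2 had the lowest ratio, at 16.3 CPM in WT and 7.79 CPM in Eed cells (log2 -0.98), and Bub1b the highest, at 4.50 and 8.18 CPM (log2 0.74).

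Genes outside the list with the most similar pattern were found by the Spearman correlation with the mean log2 level of the 37 genes over 832 mTEChi cells and 14539 genes, given as a description of cells that share depth and plates. The highest values were those of Stmn1 (0.65), which destabilises microtubules, 2810417H13Rik (0.65), Cks1b (0.60), Gm5518 (0.59), Hmgn2 (0.58), Hmgb1 (0.58), Casc5 (0.58), Ran (0.58), Spc24 (0.58), Hmgb2 (0.57), Gm11223 (0.57), Gm15387 (0.57), Hmgb1-ps2 (0.56), Gm10282 (0.56) and Cdk4 (0.56). Casc5 and Spc24 encode kinetochore proteins, and Hmgb1, Hmgb2 and Hmgn2 bind chromatin. Hmgb1 and Hmgb1-ps2 are near copies, between which reads could have been divided.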

How the data were processed

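RNA of sorted thymic epithelial cells was sequenced by SMART-seq2 from polyadenylated RNA, per the labels' protocols, in bulk samples, small pools and single cells. The authors deposited 1 table of unadjusted counts per gene, with 45317 gene names. Tools listed without roles in the submitters' processing notes are HTSeq, HISAT 0.1.6, Trimmomatic, FastQC, MACS2 and BWA 0.5.9, with the build mm10. The 92 spike-in and 5 unassigned entries stayed out of library sizes and tests. Whether counting used strand was not given in the sources used here. ChIP samples and repeat runs were not analysed here.

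Bulk units were fitted with edgeR 4.0.16 in R 4.3.3 (filterByExpr, TMM, quasi-likelihood, all 3 groups, Benjamini-Hochberg over all 18931 genes, threshold 0.05), with DESeq2 1.42.0 as an alternative. CPM of bulk units uses TMM library sizes, and CPM of single WT libraries, small pools and single cells uses plain totals. The test was checked on simulated counts. The 3 comparisons share groups. Small pools were fitted alike on plate SCGC1373. Single-cell counts were summed per group and plate, or thinned to 50000 counts a cell, in Python 3.11.15 with NumPy 2.4.6, SciPy 1.17.1 and pandas 2.3.3, and no doublet caller was run. The limits on cells kept 272 of 384 WT cTEC, 330 of 384 Eed cTEC, 286 of 496 WT mTEChi, 329 of 469 ZsGneg and 217 of 540 ZsGpos wells, with 2 of 141 ZsGpos wells kept on plate SCGC1381. Figures used Matplotlib 3.10.9.

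The 37 genes, the other lists and the groupings were chosen with earlier results of these data known. By the rule for named genes, values in every bulk unit are given for 16 chosen genes and for the genes with the highest or lowest fold change of each role, pathway genes are named where they passed the threshold or the fold, and 15 genes are named by correlation. The rest are given by range and count, and a few beyond the rule were added after their values were seen.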

Additional observations from a re-analysis of the deposited data

Results flagged for a closer look

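In 10 of the 74 sets of 4 Eed units (37 genes in ZsGneg and in ZsGpos), the highest or lowest unit lay further from the others than Dixon's 95% critical value for 4 values allows, where chance gives about 1 in 20 for normally distributed values, which levels near 0 are not. Among the regulators of the G1/S transition these were E2f1 in ZsGneg, with a highest unit of 12.6 CPM, E2f1 in ZsGpos (5.12 CPM), Cdc6 in ZsGpos (22.3 CPM) and Mcm2 in ZsGpos (24.7 CPM). Tyms in ZsGpos had a unit far below the others, at 9.62 CPM. Among the G2/M genes these were Plk1 in ZsGneg (13.7 CPM), Mybl2 in ZsGneg (0.0854 CPM, a single count where the other units had none, so that any value above 0 meets the criterion), Cenpe in ZsGpos (170.9 CPM), Cenpf in ZsGneg (169.1 CPM) and Ube2c in ZsGneg (81.05 CPM).

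Wells labelled as having no template held counts. Well A2 of plate SCGC1380 had 8 counts on 4 of the 37 genes among 73567 gene counts, and the neighbouring wells A1 and A3 had 51838 and 67466 gene counts with 0 on the 37 genes. These 3 wells exceed the limit of 50000 gene counts used for single cells. The other 11 of the 14 such wells had fewer than 1000 gene counts, and well A2 of plate SCGC1379 had 2 counts on 2 of the genes.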

How the results depend on the processing

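Over all results and settings 27 values moved by more than the spread, 22 lost a call, 10 gained a call and 0 called values changed sign, and the others did none of these. The G2/M median of ZsGpos against WT, 0.07 and with no test, took the other sign in 3 settings, at -0.05 with 1 library of each WT number, -0.15 with the replicate block and -0.09 without ZsGpos 01. The number of the 37 genes called became 2 (Ccnb1 and Cdk1) in ZsGpos against ZsGneg without a low-count filter, and with DESeq2 4 in ZsGneg against WT and 3 in ZsGpos against ZsGneg. Of the genes tested in the whole table for ZsGpos against WT, ZsGneg against WT and ZsGpos against ZsGneg, edgeR called 0.38, 0.0423 and 2.66%, DESeq2 3.28, 4.24 and 11.1%, edgeR without a filter 0.831, 0.368 and 2.42%, with 9 separate WT libraries 1.67, 0.768 and 2.45%, with only the 2 groups compared 0.678, 0.00583 and 2.37%, with 1 library of each WT number 0.36, 0 and 1.94% and with reads outside genes as a covariate 0.0264, 0.0106 and 0%. With that covariate the G1/S median was 0.16, 1.76 and -1.53. The cause of these shifts was not tested.

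Correlations of same-numbered units were 0.00402 to 0.0181 between ZsGneg and ZsGpos and -0.0208 to 0.00372 with WT. Those of differently numbered ZsGneg and ZsGpos units were -0.0184 to 0.0143. These ranges overlap, so they cannot decide whether ZsGneg and ZsGpos units of the same number came from the same animal. ZsGneg 04 and ZsGpos 04 had Xist at 264.2 and 644 CPM and 4 Y-linked genes at 0 CPM. The other Eed units had Y-linked sums of at least 218.5 CPM. Pairing by animal was not tested further. With the number as a replicate block 0 of the 37 genes were called in each comparison, 0.301, 0.00528 and 1.81% of all genes were called, and the G1/S median of ZsGpos against ZsGneg was -0.33. The block gave Cks1b, Ncapg and Cdkn1a adjusted p values of 0.0573, 0.0636 and 0.0725 (edgeR).

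Leaving out 1 unit at a time, 0 to 1 of the 37 genes were called in ZsGpos against ZsGneg (Ccnb1 without ZsGneg 01). The G1/S median ranged from 0.82 to 1.34 in ZsGneg against WT (the highest without WT 01), from 0.24 to 0.85 in ZsGpos against WT and from -0.83 to -0.55 in ZsGpos against ZsGneg. The G2/M median ranged from 0.49 to 0.73, from -0.09 to 0.32 and from -0.91 to -0.39 in the same order.

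In single cells, the mean of the cells' own CPM put 1 gene past the fold in ZsGpos against WT and 2 in Eed against WT cTEC. In cTEC without cells with at least 3 thymocyte markers 3 genes passed, and the Eed share of cells with 5 or more G2/M genes was 0.946%. Shares of all genes are not given for these settings. By the main rule 3.08% of all genes were lower and 1.19% higher in ZsGpos against WT, and 19.3% passed in cTEC. Leaving out 1 plate at a time gave 2 to 15 genes in ZsGpos against WT. There were 5 without plate SCGC1381 and 15 without SCGC1379, where 3.59 and 5.25% of all genes passed as lower. In ZsGpos against ZsGneg there were 2 to 25 (25 without SCGC1379, where 4.45% of all genes passed as lower). The share of cells ranged from 13.2% (without SCGC1379) to 25.8% (without SCGC1380) in ZsGpos. Not thinned it was 29.7% in WT and 29.5% in ZsGneg mTEChi. With 3 or more genes it was 10.3 and 6.67% in WT and Eed cTEC and 36.4, 34.95 and 26.3% in WT, ZsGneg and ZsGpos, and with 8 or more 17.6% in ZsGneg and 12.9% in ZsGpos.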
